A study of Mus musculus with 15 samples.

Results

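A set of 10 genes that mark pericytes, stellate cells and smooth muscle was followed in mouse islet RNA: Pdgfrb, Pdgfra, Acta2, Tagln, Myh11, Cnn1, Rgs5, Cspg4, Des and Notch3. They were chosen by name as the rows of the deposited count table that carry these symbols, and all 10 were found among 24060 entries. After a filter on low counts 9 of them entered the tests over 15460 genes, and Cnn1 did not. The RNA came from bulk pancreatic islets of FVB/NJ mice aged 9 to 10 weeks, in 5 groups of 3 libraries. Wild-type mice (WT) carried no transgene, hIAPP mice expressed human islet amyloid polypeptide, and rIAPP mice expressed the rodent form. The hCAST mice expressed human CAST, which encodes the calpain inhibitor calpastatin, and the hIAPP_hCAST mice expressed both human proteins. Per the series text the transgenes were driven by the insulin II promoter, given only as insulin for CAST in the doubly transgenic mice. That promoter is active in beta cells, so mural and stellate cells were not the cells meant to express the transgenes. Human IAPP forms amyloid and the rodent form does not. The study compared the human with the rodent form, and asked what calpastatin changes in mice with human IAPP.

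Pericytes wrap the islet capillaries and share contractile and signalling genes with the smooth muscle of arterioles. Endothelial cells release PDGF-B, which binds the receptor PDGFRβ on pericytes and recruits them, while Notch3 on the mural cell answers to Jagged1 on the endothelium and maintains the mural state. Stellate cells and fibroblasts express PDGFRα, the receptor for PDGF-AA, and when activated they lay down collagen and can take up contractile genes such as Acta2. No member is exclusive to 1 cell type, and in bulk RNA more cells of a type and more RNA per cell cannot be told apart.

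Total counts ran from 28287011 to 40191501 per library. In 3 libraries, WT 2, WT 3 and rIAPP 2, more than 50% of counts fell on Rn45s, Lars2 and Mir6236, entries known to collect ribosomal RNA reads (94.3%, 68.9% and 67.7%). Those shares were 0.286% to 11.8% in the other 12 libraries. WT 2 therefore kept 1667190 counts on all other genes, WT 3 and rIAPP 2 kept 8796210 and 9510502, and the rest kept 30199765 to 40062153. Library numbers follow the order of deposit and pair nothing. The labels do not state that the libraries of a group came from separate animals or litters, so p-values measure the spread between these libraries. Numbers in the sample titles fall in 1 range for WT and hCAST, another for hIAPP and hIAPP_hCAST, and rIAPP stands apart, so any difference between those ranges cannot be told apart from the IAPP transgenes. Levels are given as CPM, the counts of a gene scaled by TMM to a common library size, and a gene was called at an adjusted p below 0.05 in edgeR's quasi-likelihood test.

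Levels among the 10 genes were compared per kilobase of transcript. Rgs5 led with a median of 44.7 CPM per kilobase over the 15 libraries, and in no group did another member reach it. Pdgfrb was next at 8.83 and Myh11 at 5.81, but in WT they averaged 6.2 ± 1.01 and 6.16 ± 1.79 CPM per kilobase (SD, n = 3) and could not be ordered. Notch3 followed at 4.07, Tagln at 3.41, Acta2 at 2.99 and Des at 2.71. In WT these 4 lay between 2.3 ± 0.382 for Des and 3.26 ± 0.93 for Notch3, and the libraries of neighbours overlapped there. Cspg4 at 0.983 and Pdgfra at 0.896 CPM per kilobase changed places between groups. Pdgfra varied most among the tested members, with a within-group coefficient of variation of 0.46. Cnn1 closed the order at 0.0477. All 9 tested members differed somewhere among the 5 groups, with adjusted p from 4.5e-05 for Notch3 to 0.0267 for Pdgfra, where 26.3% of all tested genes did so.

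**Figure D1:**
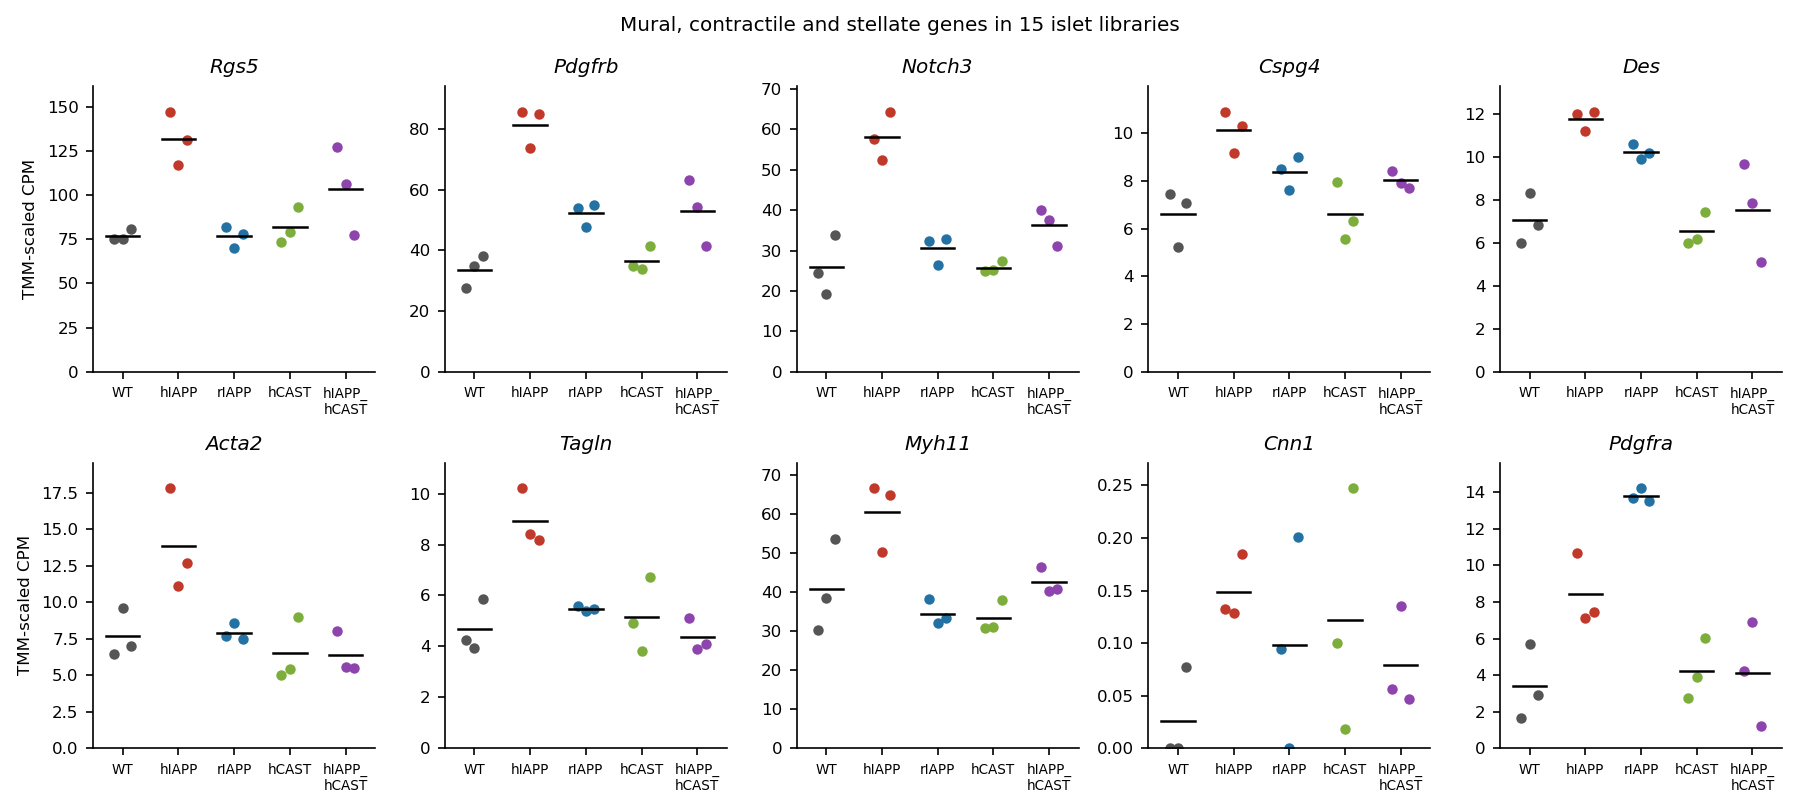
TMM-scaled CPM of each of the 10 genes in each of the 15 libraries, by group, 1 panel per gene, with a point per library and a bar at the group mean. The hIAPP libraries lie above the WT libraries for every tested gene but Myh11, and Pdgfra is highest in rIAPP.

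Rgs5 encodes a regulator of G-protein signalling that is a standard pericyte marker (chromosome 1, 169655501 to 169695813, GRCm38). It had 75.2, 75.3 and 80.8 CPM in WT 1, 2 and 3, and 147, 117 and 131 CPM in hIAPP. In rIAPP it had 81.9, 70.3 and 77.7 CPM, in hCAST 73.5, 79.1 and 93.3, and in hIAPP_hCAST 127, 106 and 77.3. The hIAPP libraries stood above every WT, rIAPP and hCAST library, and the hIAPP_hCAST libraries ran from the WT level up into the hIAPP range. Rgs5 rose in hIAPP over WT by 0.77 ± 0.15 on the log2 scale (SE, n = 3 a group, adjusted p = 0.00541). Against rIAPP it was higher in hIAPP by 0.78 ± 0.145 (adjusted p = 0.00188). The difference of rIAPP from WT was -0.01, with a 95% interval from -0.33 to 0.31.

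Pdgfrb encodes the PDGF receptor that pericytes need for recruitment (chromosome 18, 61045150 to 61085061). Its levels were 27.5, 35 and 38.2 CPM in WT and 85.6, 73.6 and 85.0 CPM in hIAPP. They were 54.1, 47.8 and 55.0 CPM in rIAPP, while hCAST gave 34.8, 33.8 and 41.4 and hIAPP_hCAST 63.1, 54.4 and 41.4. The 3 hIAPP libraries were the highest of all 15, and the rIAPP libraries stood between them and WT without touching either. Pdgfrb rose by 1.31 ± 0.155 in hIAPP over WT (2.47-fold, adjusted p = 0.00021) and by 0.67 ± 0.155 in rIAPP over WT (adjusted p = 0.00555). It was also higher in hIAPP than in rIAPP, by 0.63 ± 0.142 (adjusted p = 0.00724). It was the only member called in all 3 of these comparisons.

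Notch3 encodes the mural Notch receptor (chromosome 17, 32120820 to 32166852, minus strand). It measured 24.5, 19.3 and 33.9 CPM in WT and 57.7, 52.4 and 64.3 CPM in hIAPP. In rIAPP the values were 32.3, 26.5 and 32.8 CPM, in hCAST 25.0, 25.1 and 27.3, and in hIAPP_hCAST 40, 37.6 and 31.1. Every hIAPP library exceeded every other library, and rIAPP lay within the WT range. Notch3 rose in hIAPP over WT by 1.1 ± 0.148 (adjusted p = 0.000398) and over rIAPP by 0.92 ± 0.138 (adjusted p = 0.000267). In hIAPP_hCAST it fell by 0.68 ± 0.136 against hIAPP (adjusted p = 0.04), a call that was lost without hIAPP 1, hIAPP 2, hIAPP 3 or hIAPP_hCAST 3 (adjusted p from 0.0712 to 0.132).

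Cspg4 encodes the NG2 proteoglycan of pericytes (chromosome 9, 56865033 to 56899870), and Des encodes desmin, the intermediate filament of muscle, pericytes and quiescent stellate cells (chromosome 1, 75360329 to 75368579). Cspg4 was at 7.48, 5.25 and 7.09 CPM in WT and 10.9, 9.20 and 10.3 CPM in hIAPP, with 7.62 to 9.00 in rIAPP, 5.56 to 7.96 in hCAST and 7.73 to 8.43 in hIAPP_hCAST. Des was at 6.0, 8.32 and 6.86 CPM in WT and 12, 11.2 and 12.1 CPM in hIAPP. It was at 10.6, 9.92 and 10.2 CPM in rIAPP, while hCAST gave 6.0, 6.2 and 7.44 and hIAPP_hCAST 9.66, 7.88 and 5.11. Both genes were highest in hIAPP with no overlap with any other group, by a narrow margin over rIAPP. Des rose in hIAPP (0.83 ± 0.192, adjusted p = 0.0112) and in rIAPP (0.64 ± 0.195, adjusted p = 0.0259) over WT, and its difference between hIAPP and rIAPP was 0.20 ± 0.168 (adjusted p = 0.537). Cspg4 rose in hIAPP by 0.53 ± 0.144 (adjusted p = 0.0272), and its rIAPP difference of 0.26 did not pass (adjusted p = 0.224).

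Acta2 encodes smooth muscle alpha-actin, the contractile filament of smooth muscle and activated stellate cells (chromosome 19, 34241090 to 34255590, minus strand). Its libraries read 6.49, 9.63 and 7.02 CPM in WT and 17.8, 11.1 and 12.7 CPM in hIAPP. They read 7.69, 8.58 and 7.46 CPM in rIAPP, while hCAST gave 5.04, 5.45 and 9.00 and hIAPP_hCAST 8.03, 5.56 and 5.53. The hIAPP libraries were above all others, with hIAPP 1 well above its 2 replicates, and the other 4 groups overlapped each other. Acta2 rose by 0.97 ± 0.252 in hIAPP over WT (adjusted p = 0.0235) and by 0.82 ± 0.225 over rIAPP (adjusted p = 0.0243). It fell by 1.13 ± 0.221 in hIAPP_hCAST against hIAPP (adjusted p = 0.0407). Acta2 shares long stretches of near-identical sequence with other actin genes such as Actg2 and Acta1, so the authors' counting could have split or dropped its reads.

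Tagln encodes transgelin (SM22), an actin-binding protein of smooth muscle (chromosome 9, 45929619 to 45936058, minus strand). It had 4.24, 3.94 and 5.86 CPM in WT and 10.2, 8.40 and 8.16 CPM in hIAPP. It had 5.59, 5.4 and 5.45 CPM in rIAPP, while hCAST gave 4.92, 3.82 and 6.74 and hIAPP_hCAST 5.13, 3.89 and 4.11. As with Acta2, hIAPP stood apart and the other 4 groups overlapped or adjoined each other. Tagln rose by 0.90 ± 0.206 in hIAPP over WT (adjusted p = 0.0108) and by 0.70 ± 0.183 over rIAPP (adjusted p = 0.0164), and fell by 1.03 ± 0.179 in hIAPP_hCAST against hIAPP (adjusted p = 0.0163). In the GENCODE M21 annotation 1241 of its 1988 exonic bases overlap a gene on the other strand, Gm48529, and 108 overlap Pcsk7, also on that strand. The strand setting of the counting is not given in the sources used here. Exons of Pdgfra, Notch3 and Des overlap opposite-strand genes over 456, 488 and 220 bases at most per gene, out of 10024, 8089 and 3754.

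Myh11 encodes the smooth muscle myosin heavy chain (chromosome 16, 14194535 to 14291372, minus strand). It was at 30.3, 38.5 and 53.7 CPM in WT and 66.6, 50.4 and 65.0 CPM in hIAPP. In rIAPP it was at 38.2, 32.0 and 33.3 CPM, in hCAST at 30.9, 31.2 and 38.1, and in hIAPP_hCAST at 46.6, 40.2 and 40.9. WT 3 reached into the hIAPP range, which made Myh11 the only tested member whose WT and hIAPP libraries overlapped. Its difference of 0.58 ± 0.178 between hIAPP and WT missed the threshold (adjusted p = 0.0509) and passed it without WT 3 (0.89, adjusted p = 0.00461) and without hIAPP 2 (adjusted p = 0.0387). Against rIAPP, Myh11 was higher in hIAPP by 0.81 ± 0.17 (adjusted p = 0.00512). Cnn1, which encodes calponin 1 (chromosome 9, 22099216 to 22109630), had 1 count over the 3 WT libraries and 23 over the 3 hIAPP libraries. After scaling, that is a ratio of 9.26 with a 95% counting interval from 1.5 to 381. Its highest library in any group was hCAST 3 at 0.247 CPM, so at this depth no order of the groups could be read for Cnn1.

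The start of Acta2 is shown because contractile genes carry CArG boxes, the binding sequence of serum response factor, near their start sites. RefSeq promoter windows (GRCm38.p6) were matched for 7 of the 10 genes: Acta2, Cnn1, Cspg4, Des, Notch3, Pdgfra and Rgs5. In the 250 bases before the start, on both strands, a strict CArG box (CCNNNNNNGG with all 6 middle bases A or T) was in none of the 7 and in 1.47% of 32851 promoters. A looser form with at least 5 of the 6 middle bases A or T, searched after the strict form gave no match, was in Acta2 alone of the 7, and in 8.59% of promoters. Its pair of boxes, in capitals within 30 bases each, begin 84 and 34 bases before the RefSeq start on the minus strand of chromosome 19, inside what GENCODE annotates as exon 1 of Acta2 (34255290 to 34255590). The stretches lie at chr19:34255438-34255467 and chr19:34255388-34255417.
Acta2 box at 84: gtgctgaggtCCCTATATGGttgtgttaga
Acta2 box at 34: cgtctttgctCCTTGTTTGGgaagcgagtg
The Notch effector motif GTGGGAA, the letters bound by RBPJ, was in none of the 7 windows on either strand and in 5.42% of promoters. A match or its absence describes these letters in this window only.

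Pdgfra encodes the receptor that marks fibroblasts and mesenchymal cells (chromosome 5, 75152292 to 75198215), and it followed another order than the mural genes. It had 1.66, 5.69 and 2.93 CPM in WT, 10.7, 7.11 and 7.44 CPM in hIAPP, and 13.7, 14.2 and 13.5 CPM in rIAPP. It had 2.74, 3.88 and 6.03 CPM in hCAST and 4.2, 6.91 and 1.22 CPM in hIAPP_hCAST. The rIAPP libraries were the highest of all and close together, and the hIAPP libraries came next, above every WT, hCAST and hIAPP_hCAST library. Pdgfra rose in rIAPP over WT by 2.52 ± 0.636 (adjusted p = 0.0144), and the call was lost without WT 1 (1.97, adjusted p = 0.11). Its difference of 1.82 ± 0.633 in hIAPP over WT did not pass (adjusted p = 0.0874). The hIAPP minus rIAPP difference was -0.71 ± 0.479 (adjusted p = 0.423). In a fit of these groups alone it was called lower in hIAPP (-0.72, adjusted p = 0.00359), the only 1 of 15 alternatives to call it, with adjusted p up to 0.851 in the others.

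Islets with human IAPP thus had more RNA of 7 of the 9 tested genes than WT, and less of none: Pdgfrb, Notch3, Rgs5, Tagln, Des, Acta2 and Cspg4. Their fold changes ran from 0.53 to 1.31 on the log2 scale, and the median over the 9 was 0.90 where the median of all genes was 0.02. Over all tested genes 6.27% were called higher in hIAPP. In 8 of the 9 members the hIAPP libraries all lay above the WT libraries, which held for 17.9% of tested genes. The count fell to 3 without WT 1 (Pdgfrb, Rgs5 and Notch3) and to 3 without the ribosome-rich libraries WT 2, WT 3 and rIAPP 2 (Pdgfrb, Notch3 and Myh11). Calls over all genes fell from 1833 to 1390 and to 383 in these fits, and without the ribosome-rich libraries Acta2 was at 1.09, Tagln at 1.06, Des at 0.96, Rgs5 at 0.80 and Cspg4 at 0.43, none of them called. With hCAST as the control in place of WT, a group with no ribosome-rich library, 8 of 9 were called higher, all but Pdgfra, against 5.04% of tested genes. Single libraries also decided calls: Tagln and Des lost theirs without WT 1 (adjusted p = 0.0906 and 0.0928), Acta2 without WT 1, WT 3 or hIAPP 1 (0.0745 to 0.125), and Cspg4 without any 1 of WT 1, WT 2, WT 3, hIAPP 1 or hIAPP 3 (0.0509 to 0.0831).

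**Figure D2:**
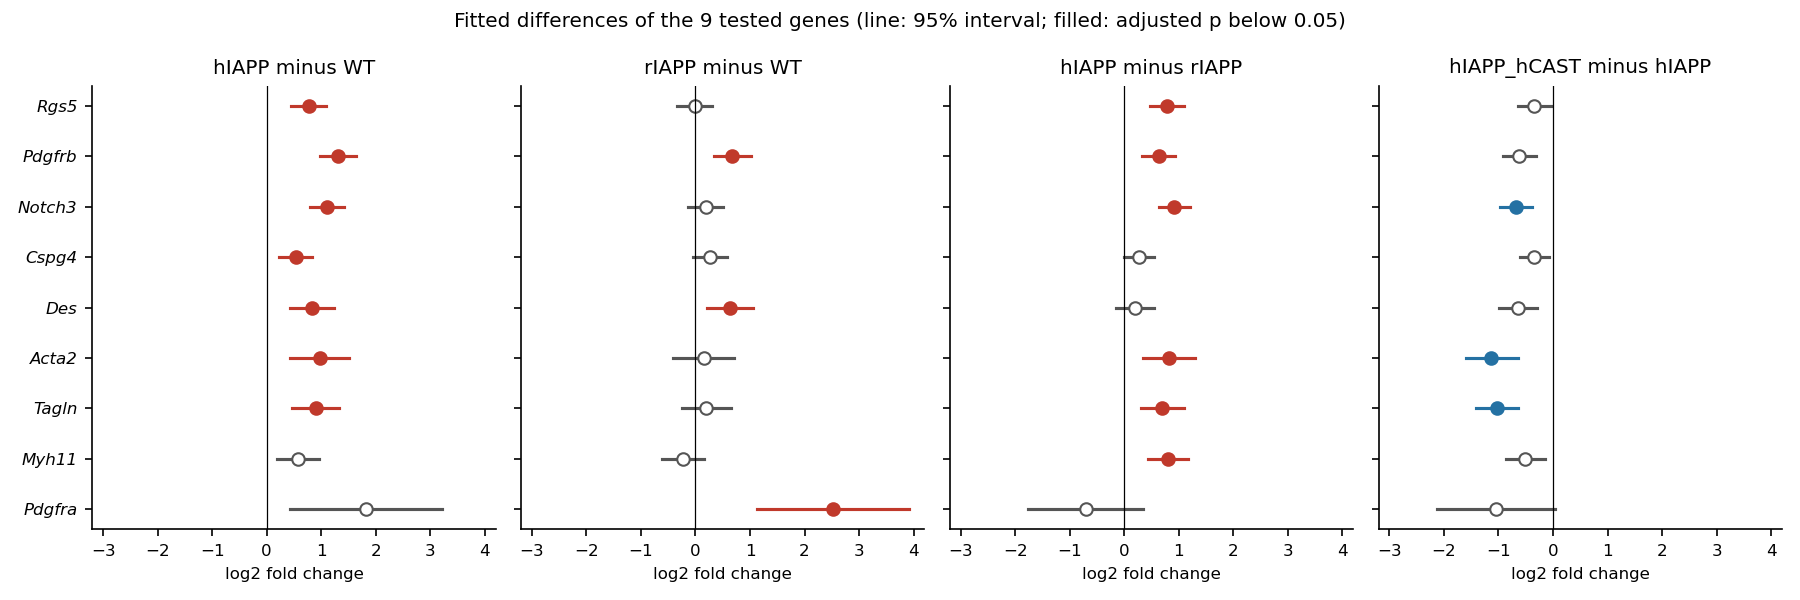
Log2 fold change of the 9 tested genes (horizontal axis) for hIAPP minus WT, rIAPP minus WT, hIAPP minus rIAPP and hIAPP_hCAST minus hIAPP, with lines for the 95% interval of the edgeR fit and filled points for an adjusted p below 0.05. In hIAPP minus WT 7 genes are filled, from 0.53 to 1.31, in rIAPP minus WT 3, in hIAPP minus rIAPP 6, and in hIAPP_hCAST minus hIAPP 3 below 0.

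With the rodent form fewer of these genes passed the test. Pdgfrb, Pdgfra and Des rose in rIAPP over WT, 3 of 9, beside 10.7% of all tested genes, and the member median was 0.20. The contractile genes did not pass: Acta2 at 0.15, Tagln at 0.20 and Myh11 at -0.23, with adjusted p of 0.742, 0.546 and 0.389. Against hCAST instead of WT the same 3 genes were called higher in rIAPP, with 10.6% of tested genes. The comparisons of hIAPP and of rIAPP with WT share the WT libraries and are given side by side only. Set directly against each other, hIAPP exceeded rIAPP in 6 of 9 genes (Pdgfrb, Notch3, Rgs5, Acta2, Tagln and Myh11), beside 7.71% of tested genes. Thus the 3 tested contractile genes and the pericyte genes Rgs5 and Notch3 were higher with the human than with the rodent form. Des, Pdgfra and the pericyte gene Cspg4 (0.27, adjusted p = 0.216) were not called different. Of the 19 tested other pericyte genes listed below, 3 were higher and 1 lower in hIAPP than in rIAPP (median 0.05). Of the 21 tested other contractile genes 3 were higher and 3 lower (median 0.28), beside 5.28% of tested genes lower. Des in rIAPP lost its call without WT 1, WT 3, rIAPP 1 or rIAPP 3 (adjusted p from 0.0568 to 0.174). In hIAPP against rIAPP, Acta2 and Tagln each lost theirs without hIAPP 1 or without any 1 of the rIAPP libraries (adjusted p from 0.0555 to 0.126). On the log2(FPKM + 1) scale 0 of 9 were called in hIAPP against rIAPP and 1, Pdgfra, in rIAPP against WT. Calls over all genes there were 263 and 678, against 2009 and 3599 in the reported fit. The median of all genes itself moved by 0.40 and 0.80 on that scale.

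Human CAST alone left no member called, 0 of 9, with differences from WT between -0.29 for Myh11 and 0.82 for Pdgfra. Over all tested genes 0.0194% were called in either direction, and none of the 9 had an unadjusted p under 0.05. DESeq2 called none either. On the log2(FPKM + 1) scale, where the median of all genes itself differed by 1.26 between these groups, 8 were called higher and 12853 genes in all were called in either direction.

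When both human transgenes were present, Acta2 and Tagln averaged near their WT values, and so did Myh11, Des and Pdgfra. Acta2 averaged 6.37 ± 1.44 CPM (SD, n = 3) in hIAPP_hCAST and 7.71 ± 1.68 in WT, and Tagln 4.38 ± 0.662 and 4.68 ± 1.03. In the same order Myh11 averaged 42.6 ± 3.51 and 40.9 ± 11.9 CPM, Des 7.55 ± 2.29 and 7.06 ± 1.17, and Pdgfra 4.11 ± 2.85 and 3.43 ± 2.06. Pdgfrb stayed between the groups, at 53.0 ± 10.9 CPM in hIAPP_hCAST against 33.6 ± 5.49 in WT and 81.4 ± 6.73 in hIAPP, and so did Rgs5, at 104 ± 25 against 77.1 ± 3.2 and 132 ± 15. Against hIAPP, 3 of 9 fell (Acta2, Tagln and Notch3), beside 0.375% of tested genes, and all 9 fitted differences were negative with a median of -0.64. In 8 of 9 the hIAPP_hCAST libraries all lay below the hIAPP libraries, as in 8.69% of tested genes. The remaining members did not pass, with Pdgfrb at -0.62 (adjusted p = 0.0646), Des at -0.64 (0.0958) and Rgs5 at -0.35 (0.355). The calls depended on single libraries: 0 were left without hIAPP 1 or hIAPP 2, 1 (Tagln) without hIAPP 3 or hIAPP_hCAST 3, 5 were made without hIAPP_hCAST 1, and 0 were made when the fit held only these 2 groups. Calls over all genes, 72 in the full fit, were 21 and 18 without hIAPP 1 and hIAPP 2, 28 and 79 without hIAPP 3 and hIAPP_hCAST 3, 129 without hIAPP_hCAST 1, and 2 with these 2 groups only. Over all alternatives the fitted differences ran from -1.32 to -0.89 for Acta2, -1.15 to -0.82 for Tagln and -0.76 to -0.56 for Notch3. Acta2 also lost its call without hIAPP_hCAST 2 (adjusted p = 0.0645).

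**Figure D3:**
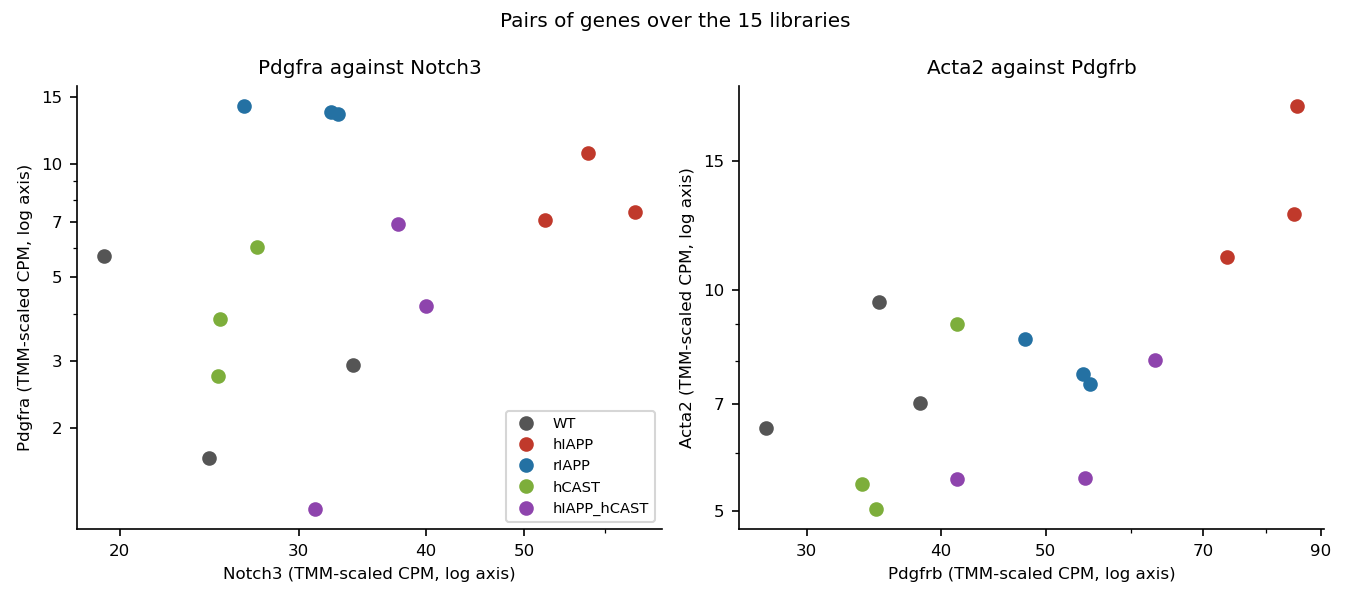
TMM-scaled CPM of Pdgfra against Notch3 (left) and of Acta2 against Pdgfrb (right), on log axes, a point per library coloured by group. The rIAPP libraries have the highest Pdgfra with Notch3 in the WT range, and the hIAPP libraries have the highest Acta2 and Pdgfrb, while the hIAPP_hCAST libraries have Pdgfrb of 41.4 to 63.1 with Acta2 no higher than 8.03.

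Against hCAST, where both groups carry human CAST, 0 of 9 were called in hIAPP_hCAST, beside 0.75% of tested genes. At an unadjusted p under 0.05, 4 of 9 were higher (Pdgfrb, Notch3, Rgs5 and Cspg4), beside 5.75% of tested genes. DESeq2 called 2, Pdgfrb and Notch3, with 269 genes called in all. Without hIAPP_hCAST 3, calls over all genes rose from 116 to 356, and edgeR called 3 members. These were Pdgfrb at 0.68 (adjusted p = 0.00574), Rgs5 at 0.51 (0.018) and Notch3 at 0.59 (0.0304). The hIAPP_hCAST 3 library had the lowest Pdgfra, Des, Rgs5, Pdgfrb and Notch3 of its group. Acta2 and Cspg4 were also lowest there, by narrow margins, while Tagln and Myh11 were lowest in hIAPP_hCAST 2. The hIAPP_hCAST 3 library also had the lowest summed stellate and fibroblast list of the group (300 CPM). Its acinar sum of 6060 CPM was the lowest of all 15. The interaction, which asks whether the human IAPP difference is smaller in the presence of human CAST, called 0 of 9 members and 0% of all genes. All 9 fitted values were negative with a median of -0.63, and 6 had an unadjusted p under 0.05, as did 4.99% of tested genes in that direction. Tagln had the smallest p, at -1.14 ± 0.274 (adjusted p = 0.274). DESeq2 called it (-1.13, adjusted p = 0.0429) and no other member, with 48 genes called in all. The edgeR test thus did not show, for any single member, that the human IAPP difference depended on human CAST.

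Libraries also differed in other cell types. Beside the marker counts given here, 6.27% of all tested genes were called higher and 5.59% lower in hIAPP than in WT. In rIAPP 10.7% were called higher and 12.6% lower than in WT. The summed beta-cell markers, Ins1 and Ins2 among them, were high in every library, at 113000 to 123000 CPM in WT, 72500 to 82700 in hIAPP, 38500 to 49900 in rIAPP, 91400 to 102000 in hCAST and 68000 to 82700 in hIAPP_hCAST. Of the 8 markers 6 were lower in hIAPP and 8 in rIAPP than in WT. Macrophage markers summed to 73.1 to 107 CPM in WT, 291 to 412 in hIAPP, 62.8 to 82.6 in rIAPP, 109 to 116 in hCAST and 166 to 281 in hIAPP_hCAST, with 10 of 11 tested markers higher in hIAPP than in WT. Endothelial markers summed to 603 to 725 CPM in WT, 679 to 727 in hIAPP, 863 to 888 in rIAPP, 586 to 646 in hCAST and 491 to 626 in hIAPP_hCAST. In hIAPP 0 of 12 endothelial markers were higher and 1 lower than in WT, where the members summed to 340 to 419 CPM against 183 to 236 in WT. In rIAPP 9 of 12 endothelial markers were higher. Acinar markers summed to 10500 to 47600 CPM in WT, 39800 to 87400 in hIAPP and 62400 to 86700 in rIAPP, with 0 of 12 called in either, and to 28700 to 60400 in hCAST and 6060 to 89400 in hIAPP_hCAST. The part of these shifts in the member differences was not tested. Skeletal muscle markers, which could carry Des and actin reads, summed to between 2.85 and 5.39 CPM in every library, and only 3 of 9 passed the filter on low counts. The 3 tested ones, Acta1, Actn3 and Mylpf, were detected in every group. Between hIAPP and WT they differed by -0.46 to 1.25 on the log2 scale, and 0 of 3 were called. Myh4, a fast muscle myosin, had 0 counts in WT, rIAPP and hCAST, 3 in hIAPP and 2 in hIAPP_hCAST.

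Other genes of the same cells and pathways were read from lists. Over all tested genes 6.27% were called higher in hIAPP and 10.7% in rIAPP than in WT. Another 2 shares apply here: 5.04% were higher in hIAPP than in hCAST, and 0.375% lower in hIAPP_hCAST than in hIAPP. Of the 20 stellate and fibroblast genes 15 rose in hIAPP over WT and 0 fell, with a median of 1.25, and against hCAST 10 of 20 were higher in hIAPP. They include Cygb, a globin of stellate cells (1.24 ± 0.16), Timp1, an inhibitor of matrix metalloproteinases (2.20 ± 0.403), and Ngfr, a neurotrophin receptor that Schwann cells also express (1.23 ± 0.265). Schwann and glial markers had 2 of 9 higher in hIAPP than in WT and summed to 31.1 to 46.8 CPM in WT and 48.2 to 55.2 in hIAPP. In rIAPP 11 of 20 rose and 0 fell, with a median of 0.90. In hIAPP_hCAST the median against hIAPP was -1.0, but only 2 fell, Cygb by 0.99 and Spon1 by 1.0. Of the 19 tested other pericyte genes 6 rose in hIAPP and 0 fell (median 0.56), 10 were higher in hIAPP than in hCAST, and 6 rose in rIAPP over WT. Ednra, an endothelin receptor, was higher in hIAPP (1.23 ± 0.203) and at -0.02 in rIAPP. Kcnj8, a subunit of the ATP-sensitive potassium channel of pericytes, ran the other way, from 0.949 ± 0.0655 CPM in WT to 3.28 ± 0.373 in hIAPP and 7.95 ± 0.549 in rIAPP (SD, n = 3), and its hIAPP minus rIAPP difference was -1.27 (adjusted p = 0.000405).

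The other 21 contractile genes gave 5 higher and 0 lower in hIAPP, with a median of 0.30, beside 6.27% of all tested genes higher. In rIAPP they gave 3 higher and 2 lower, where 10.7% of all tested genes were higher and 12.6% lower. Mylk, the myosin light chain kinase, rose by 0.87 ± 0.187 in hIAPP, and Itga8, an integrin subunit, by 1.21 ± 0.281. Pcp4l1 was at 2.81 ± 1.48 CPM in WT, 4.99 ± 0.722 in hIAPP and 26.6 ± 6.10 in rIAPP, a rise of 1.30 and of 3.71 on the log2 scale. Casq2 and Mkl1, which were named after their values were seen, fell in rIAPP by 2.07 and 0.49. No contractile gene of this list was called in hIAPP_hCAST against hIAPP.

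The ligands of the PDGF receptors are the 4 PDGF genes. None of the 4 was called in hIAPP: Pdgfb at 0.32, Pdgfc at 0.57, Pdgfa at 0.15 and Pdgfd at -0.17. In rIAPP Pdgfa rose by 0.36 (adjusted p = 0.00941) and Pdgfb by 0.55 (adjusted p = 0.0423). Of 12 other Notch pathway genes 7 rose in hIAPP and 0 fell, beside 6.27% of all tested genes called higher. Jag1, the ligand of Notch3, rose by 0.87 ± 0.121, and the Notch target genes Hey2 and Heyl rose by 0.91 ± 0.143 and 1.25 ± 0.227. Heyl fell by 0.95 in hIAPP_hCAST against hIAPP (adjusted p = 0.0415), the only one of the 12 called there. In rIAPP 4 rose and 1 fell, beside 10.7% of all tested genes higher and 12.6% lower. Hey2 was at 0.08 there (adjusted p = 0.773), and its hIAPP minus rIAPP difference was 0.83 (adjusted p = 0.000257). Of 6 TGF-beta ligands and receptors 2 rose in hIAPP, Tgfbr2 (1.04 ± 0.175) and Tgfb3 (0.76 ± 0.199), while Tgfb2 at 0.53 did not pass.

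**Figure D4:**
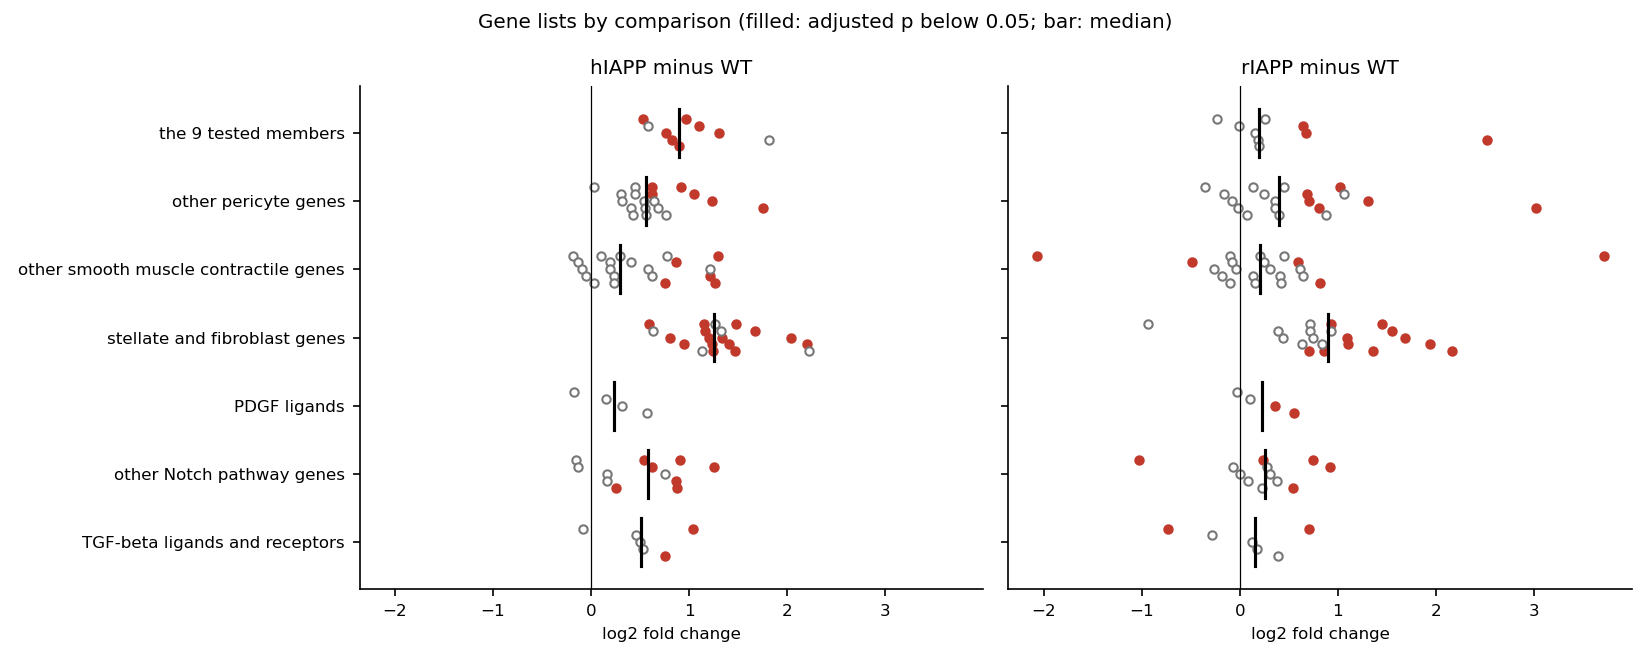
Log2 fold change (horizontal axis) of each tested gene in the member list and the 6 pathway lists, for hIAPP minus WT (left) and rIAPP minus WT (right), a point per gene, filled where the adjusted p was below 0.05, and a bar at the list median. The members have medians of 0.90 and 0.20, and the stellate and fibroblast list 1.25 and 0.90.

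Across the 15 libraries the members did not all vary together. Pdgfrb and Notch3 had a Pearson r of 0.91 in log2 CPM, and 0.59 after the group means were removed. Pdgfrb with Rgs5 gave 0.84 and 0.85, and Acta2 with Tagln 0.84 and 0.54. Pdgfra went with Des (0.85 and 0.86) but little with Notch3 (0.31 and 0.09). These values are descriptions over libraries that share groups, depth and the 3 ribosome-rich libraries. The genes of all lists used here were left out of a search for likeness. Among 12256 genes outside them, those most like the mean of the tested members were Col6a1 (0.967), C1s1 (0.962), Fbn1 (0.954), Col5a3 (0.953) and Lhfp (0.953). For Pdgfrb alone they included Tcirg1 (0.965), Mmp14 (0.963), Fbn1 (0.963) and Ctsh (0.953). For Pdgfra they were Itih5 (0.976), Aldh1a1 (0.959), Bmp4 (0.957), Itgbl1 (0.957) and Fbln5 (0.956). For Acta2 the likeness was weaker, from Col28a1 (0.867) through Foxs1 (0.831), Pcsk5 (0.822) and Zeb2 (0.818) to Tgfbi (0.817).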

How the data were processed

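The authors deposited, for the 15 libraries, raw counts of reads in each gene (whole numbers) and, in a table beside it, FPKM values. Per the labels' protocols, RNeasy kits gave the RNA, and library preparation used TruSeq (Ribo-Zero depletion) as well as the NuGEN Ovation system. Per the submitters' processing notes, STAR and HTSeq were used with GRCm38 (mm10). The annotation and the strand setting are not given in the sources used here. Columns were mapped to samples by name, and 0 columns were left unused.

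Counts were tested with edgeR 4.0.16 in R 4.3.3: TMM scaling, filterByExpr by group with a minimum count of 10, 1 coefficient for each of the 5 groups, and a robust quasi-likelihood F test, with Benjamini-Hochberg adjustment over 15460 genes. The common biological coefficient of variation was 13.2%. Errors of log2 fold changes are standard errors from that fit. CPM per kilobase used gene lengths recovered from the ratio of counts to FPKM. Intervals on counts cover counting error only. The procedure was tested on simulated data with known changes. Alternatives were DESeq2 1.42.0, voom with sample weights in limma 3.58.1, upper-quartile scaling, no filter, only the compared groups, hCAST as control, log2 FPKM with pseudocounts of 1 and 0.1, removal of the 3 ribosome-rich libraries, and removal of each library in turn.

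All members are named. From each pathway list the 3 genes with the smallest p in hIAPP against WT are named, or all of a list of up to 4. The search for likeness left out all listed genes, predicted genes, pseudogenes and microRNA genes. For likeness the 5 genes with the highest Pearson r are named, among tested genes with a mean of at least 1 CPM. For Pdgfrb 1 of these genes is not reported here. Spon1, Casq2 and Mkl1 were added after their values were seen. The skeletal muscle genes, Msln and Gfap were also named outside the rule for pathway lists, with their values known. The members and lists were chosen with earlier results of these data known. Positions are from GENCODE M21 on GRCm38.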

Additional observations from a re-analysis of the deposited data

How the results depend on the processing

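Over the alternatives Pdgfrb and Notch3 were called higher in hIAPP than in WT in 16 of 16, Rgs5 in 15, Tagln and Des in 14, Acta2 in 12, Cspg4 in 10, Myh11 in 9 and Pdgfra in 4. These tallies include both FPKM scales, where all 9 members were called. There the median of all genes moved by 1.26 and 1.82, and 12277 and 11617 genes were called. Another of the 16 set hIAPP against hCAST in place of WT. In it 8 of 9 members were called, all but Pdgfra, with 1112 genes called in all. In hIAPP_hCAST against hIAPP, Tagln was called in 9 of 15, Notch3 in 8 and Acta2 in 5. WT 2 kept the fewest counts outside ribosomal sequence, which limits the WT levels. Without the 3 ribosome-rich libraries WT is 1 library, assumed to vary like the other groups, and the counts of called members were 3 for hIAPP and 1 for rIAPP against WT and 1 for hIAPP_hCAST against hIAPP. That last count was 0 with the compared groups only. In hIAPP_hCAST against hCAST voom called 2, where it called 313 genes in all. DESeq2 called 5 in hIAPP_hCAST against hIAPP, 2 against hCAST and 1 in the interaction. Over all genes it called 289, 269 and 48 there, where the reported fit called 72, 116 and 0. With log2 FPKM plus 1, and again plus 0.1, the counts were 1 and 1 for rIAPP against WT, 8 and 7 for hCAST against WT, 0 and 0 for hIAPP against rIAPP, and 0 and 0 for hIAPP_hCAST against hIAPP; with plus 0.1, 3 members differed among the 5 groups. The median of all genes moved on those scales by 0.80 and 1.27 in rIAPP and by 1.26 and 1.85 in hCAST against WT. Calls over all genes there were 678 and 617 for rIAPP and 12853 and 13029 for hCAST against WT. They were 263 and 96 for hIAPP against rIAPP and 18 and 9 for hIAPP_hCAST against hIAPP. With plus 0.1, 1277 genes in all differed among the 5 groups. Leaving out 1 library at a time, the counts ran from 3 to 8 for hIAPP against WT, 1 to 3 for rIAPP against WT, 0 to 5 for hIAPP_hCAST against hIAPP and 0 to 3 for hIAPP_hCAST against hCAST.

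Signs changed for 50 values, none of them called in the reported fit, and the cause was not tested. With upper-quartile scaling Rgs5 was at 0.03 in rIAPP and Des at 0.01 in hCAST against WT. Without the ribosome-rich libraries Myh11 was at 0.23 and Rgs5 at 0.08 in rIAPP, and Myh11 at 0.14, Des at 0.12 and Notch3 at 0.07 in hCAST. With hCAST as control Myh11 was at 0.05 in rIAPP. With voom Tagln was at -0.05 in hCAST against WT, and in hIAPP_hCAST against hCAST Pdgfra was at 0.06 and Acta2 at 0.13. With log2 FPKM plus 1, and plus 0.1, rIAPP against WT gave 0.78 and 1.15 for Myh11 and 1.31 and 1.4 for Rgs5. In hCAST against WT these scales gave 0.98 and 1.58 for Acta2, 1.19 and 1.66 for Myh11, 0.56 and 1.47 for Cspg4, 0.99 and 1.71 for Des, and 1.13 and 1.84 for Notch3. In hIAPP_hCAST against hCAST they gave 0.03 and 0.04 for Acta2. Leaving out 1 library, rIAPP against WT ran from -0.46 to 0.08 for Myh11 and -0.06 to 0.05 for Rgs5. In hCAST against WT the ranges were -0.02 to 0.31 for Pdgfrb, -0.43 to 0.03 for Acta2, -0.13 to 0.30 for Tagln, -0.53 to 0.02 for Myh11, -0.02 to 0.16 for Rgs5, -0.25 to 0.02 for Cspg4, -0.15 to 0.05 for Des and -0.17 to 0.16 for Notch3. In hIAPP_hCAST against hCAST they were -0.66 to 0.39 for Pdgfra, -0.23 to 0.28 for Acta2, -0.41 to 0.00 for Tagln and -0.02 to 0.42 for Des, and in the interaction -0.53 to 0.02 for Myh11. No paired analysis was possible because the labels give no replicate numbers shared between groups.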

Other observations

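Msln, which encodes the mesothelial surface protein mesothelin, was at 171 ± 27.4 CPM in rIAPP (SD, n = 3), against 18.2 ± 4.86 in WT, 20.6 ± 5.79 in hIAPP, 14 ± 2.13 in hCAST and 9.84 ± 1.45 in hIAPP_hCAST. It was read as part of a mesothelial marker list of which 4 genes passed the filter. Of these 4, 3 were called higher in rIAPP than in WT, beside 10.7% of all tested genes. Their log2 fold changes ran from -0.06 to 3.15 over the 4, with a median of 0.68, so the level of Msln does not stand for the list. Gfap, a filament of glia and of stellate cells, was at 1.89 ± 0.142 CPM in hIAPP and 0.884 ± 0.373 in WT, and at 0.935 ± 0.0241 in rIAPP.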
